A study of Mus musculus with 64 samples.

Results

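The 37 genes described here form a module of fatty acid oxidation enzymes and PPAR target genes. They were taken by gene symbol, through the NCBI gene identifiers of the deposited expression table, and all 37 were found among its 36332 identifiers. By role, 20 belong to mitochondrial β-oxidation, 4 are peroxisomal enzymes, and 13 are genes of the fasting response or known targets of PPARα.

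Mouse liver, skeletal muscle and omental fat were profiled by RNA sequencing, in 64 libraries that fall into 12 groups of 4 to 6. Myc KO mice came from a B6.129 strain carrying Gt(ROSA)26Sortm1(cre/ERT2)Tyj/J, crossed with B6.129-B6.129S6-Myctm2Fwa/Mmjax, in which a tamoxifen-activated Cre made from the broadly active ROSA26 locus removes floxed Myc throughout the body. Wild-type (WT) mice were labelled C57/B6. Mice of either genotype, once weaned and at 15 g or more, received 5 intraperitoneal doses of tamoxifen at 75 mg/kg, and tissues were labelled 5 or 20 months of age. The codes of the older libraries carry a number other than 20, and the labelled age was used. The labels give WT mice no Cre and no floxed allele, so the loss of Myc, the Cre and the strain background cannot be told apart. The labels do not say which libraries came from 1 animal, and p-values therefore measure only the spread between these libraries.

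Fatty acids enter cells partly through CD36, are activated to acyl-CoA by synthetases such as ACSL1, and cross into mitochondria as carnitine esters made by CPT1, carried by SLC25A20 and released by CPT2. Chain-length-specific dehydrogenases (ACADVL, ACADL, ACADM, ACADS), the trifunctional protein (HADHA and HADHB) and the matrix enzymes ECHS1, HADH and ACAA2 then shorten the chain, while electrons pass through ETF (ETFA, ETFB) and ETFDH to the respiratory chain. Peroxisomes shorten very long chains with enzymes such as EHHADH. In the fasted liver, fatty acids released by adipose tissue activate PPARα, which binds DNA with RXR at paired half-sites called DR1 elements and raises transcription of many of these genes. White adipose tissue mainly stores fat, and oxidative muscle burns it.

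The promoter table of RefSeq (GRCm38.p6) held windows for 27 of the 37 genes. A DR1 element, written as 2 AGGTCA half-sites in the same direction with 1 free base (N) between them, was searched on both strands with up to 2 mismatches. It was found in 4 of the 27 (Cd36, Echs1, Etfa and Slc25a20) and in 3.86% of 32851 promoters. The E-box CACGTG, bound by MYC with MAX and by CLOCK with BMAL1, was found in 1 of the 27 (Fgf21) and in 7.15% of all promoters. A match describes letters and not a bound site. The DR1 matches of Cd36 and Echs1 are shown because these genes changed with age, and that of Etfa is shown as a further match in a gene that was not called with age. Capitals mark the match, which begins at position -63, -83 and -77 relative to the start that the promoter table gives, in the order printed. For Cd36 that start lies inside the gene's span (chr5:17781690-17888959) and not at its outer end. Each stretch is 150 bases on the minus strand of GRCm38.p6, read 5′ to 3′, at chr5:17835897-17836046 (Cd36), chr7:140116422-140116571 (Echs1) and chr9:55512244-55512393 (Etfa).
Cd36: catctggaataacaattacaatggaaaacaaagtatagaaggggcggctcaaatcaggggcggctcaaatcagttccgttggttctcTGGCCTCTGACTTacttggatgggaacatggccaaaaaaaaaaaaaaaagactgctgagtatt
Echs1: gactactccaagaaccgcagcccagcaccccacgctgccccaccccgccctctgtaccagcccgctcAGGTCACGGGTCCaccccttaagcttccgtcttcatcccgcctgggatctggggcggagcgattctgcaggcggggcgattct
Etfa: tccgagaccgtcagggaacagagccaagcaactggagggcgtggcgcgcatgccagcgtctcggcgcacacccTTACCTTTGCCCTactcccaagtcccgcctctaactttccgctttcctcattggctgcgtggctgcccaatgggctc

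Hadha and Hadhb lie head to head on chromosome 5, with 272 bases between their annotated starts, and share 1 promoter region. The stretch before Hadhb (chr5:30155003-30155252, plus strand, 250 bases, 58.8% G or C) is shown because the ratio of these genes is described below. Capitals mark the 228 bases that also lie in the promoter window of Hadha.
Hadhb: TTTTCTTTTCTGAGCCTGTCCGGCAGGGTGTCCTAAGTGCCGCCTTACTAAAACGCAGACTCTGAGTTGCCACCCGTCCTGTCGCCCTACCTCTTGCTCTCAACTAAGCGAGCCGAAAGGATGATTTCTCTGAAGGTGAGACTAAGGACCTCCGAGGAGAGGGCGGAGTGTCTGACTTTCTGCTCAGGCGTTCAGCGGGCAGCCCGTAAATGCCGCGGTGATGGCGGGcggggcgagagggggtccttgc

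Levels are the deposited values, called here normalised read signal. Whole reads could be recovered from them, 15449409 to 28500633 per library. Differences are on the scale of log2(signal + 1) and were tested with limma across all genes, with Benjamini-Hochberg adjusted p under 0.05 counted as called. Signals are not divided by transcript length, so a level is compared between groups for 1 gene and not between genes. These are bulk tissues, in which fewer cells of a type and less RNA per cell cannot be told apart.

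The libraries matched their labelled tissues: 8 hepatocyte markers summed to at least 115460 in every liver library, 8 fibre markers to at least 136070 in every muscle library, and 8 white adipocyte markers to 13221 to 44825 in adipose. Mean Myc signal at 5 months was 5.76 in KO and 17.7 in WT adipose, 2.59 and 19.6 in liver, and 10.2 and 29.1 in muscle. At 20 months it was 7.36 and 11.97 in adipose, 2.11 and 5.87 in liver, and 5.98 and 7.91 in muscle. KO and WT libraries overlapped for Myc in muscle at 5 months (4.998 to 17.1 and 6.15 to 81.3). They also overlapped at 20 months in muscle (1.75 to 10.18 and 4.97 to 13.1) and adipose (5.14 to 9.72 and 8.10 to 16.3). Liver at either age and adipose at 5 months did not overlap. Some libraries stood apart. Of the libraries, 12 carried Xist and 52 Y-chromosome transcripts, and all with Xist were from 5-month mice, so age comparisons are also given within Y-transcript libraries. In adipose, 4 libraries of 5-month mice (3 KO, 1 WT) held epididymis transcripts, and the 5-month WT muscle library W5S5299 had an epididymis marker sum of 126 against a group median of 0.158. In that muscle group 6 of the 8 epididymis markers were under 1 in every library, so the sum rests on Crisp1 and Adam7. The 20-month WT muscle library W18S42 held hepatocyte transcripts, and 3 liver and 3 muscle libraries had a signal of the clock gene Dbp over 50.

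The tissues of 5-month WT mice differed in nearly every member. On the deposited scale, liver was the highest tissue for 17 of the 20 mitochondrial genes, all 4 peroxisomal genes and 9 of the 13 fasting and PPAR target genes. Muscle was highest for Cpt1b, Crat and Acadl among the mitochondrial genes, and for Pdk4 and Acot2. Adipose was highest for Cd36 and Angptl4. Between liver and adipose, 37 of 37 members were called, 34 of them higher in liver, in a comparison that called 74.0% of all genes. Between muscle and adipose, 28 of 37 were called (20 higher and 8 lower in muscle), with 72.7% of all genes called. Between muscle and liver, 35 of 37 were called (5 higher and 30 lower in muscle), against 75.2% of all genes. The 2 not called there were Acadl and Hadhb. Most genes of the table differed between tissues, so the levels below are given as description. The summed signal of a library also followed tissue. In 5-month WT mice every adipose library had a lower sum than any muscle library. Every muscle library in turn had a lower sum than any liver library. Tissue ranks on shares of each library's sum were not tested. The order of close means may depend on the scale, as for Echs1 (301 in liver, 182 in adipose) and Hadhb (661 in liver, 603 in muscle). Pdk4 and Angptl4, lower in liver than in adipose, were called in 7 and 9 of 12 fits that left out 1 library. Between muscle and adipose, Acsl1 was called in 4 of 12 (up to 0.111 without W5F5041, limma adjusted p), Etfa in 6 (0.118 without W5S5042) and Etfb in 9 (0.0788 without W5F5299).

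**Figure D1:**
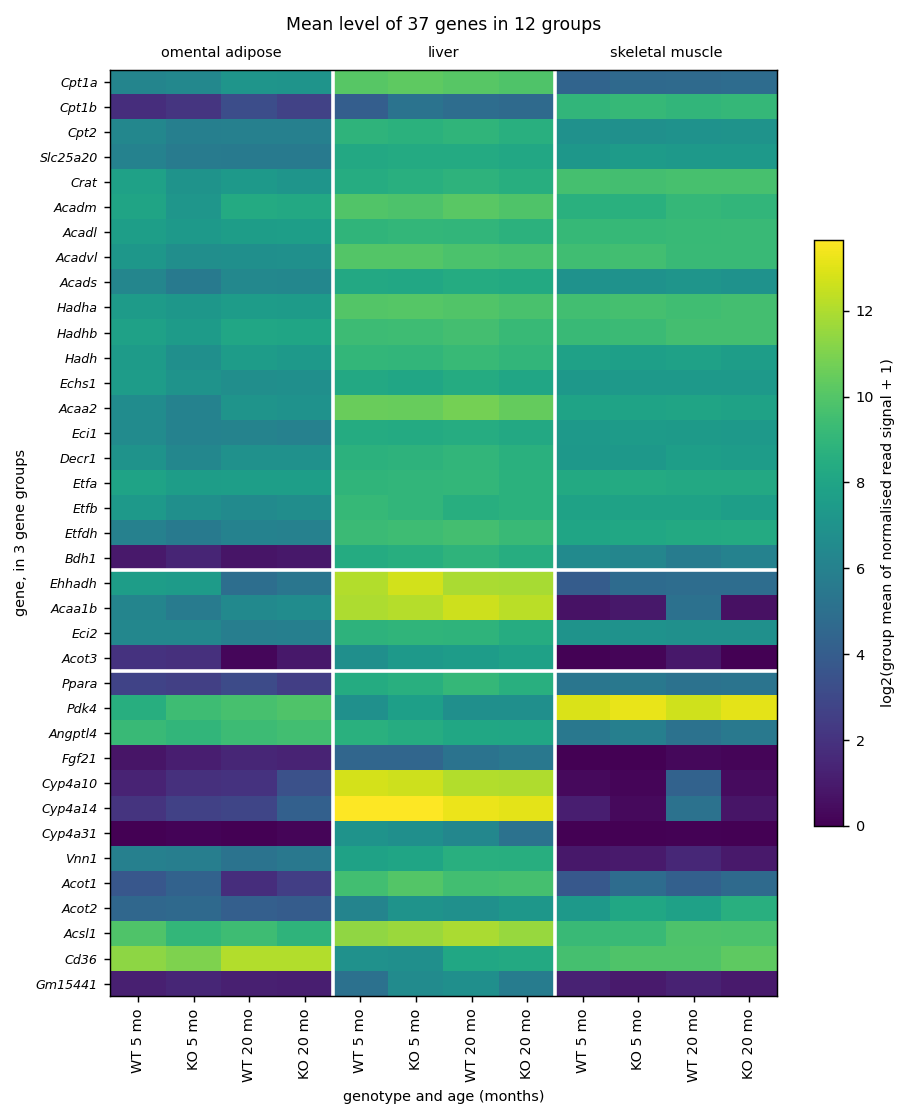
Mean level of each of the 37 genes in the 12 groups, as log2 of the group mean of normalised read signal plus 1, on a colour scale from dark (0) to yellow. Columns are genotype and age within omental adipose, liver and skeletal muscle, and white lines separate mitochondrial, peroxisomal and fasting genes. The tissue blocks differ far more than the 4 columns within each block.

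Cpt1a, the liver form of carnitine palmitoyltransferase 1 (chr19:3322326-3385735), stood at 1106 ± 358 in liver, 72.1 ± 12.9 in adipose and 20.2 ± 9.15 in muscle (SD, n = 6 each). Cpt1b, the muscle form (chr15:89416405-89425862), stood at 514 ± 68.8 in muscle, 16.2 ± 8.10 in liver and 2.49 ± 1.37 in adipose. Muscle libraries held 444 to 631 of Cpt1b and no library of the other tissues in that group exceeded 28.02. Crat, which moves short acyl groups between CoA and carnitine, was highest in muscle at 775 ± 60.6, against 353 ± 107 in liver and 221 ± 17.4 in adipose. Bdh1, which interconverts the ketone bodies, was 339 ± 176 in liver, 91.6 ± 31.1 in muscle and 0.938 ± 0.669 in adipose.

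Acadl, the long-chain dehydrogenase, ran from 199 ± 44.6 in adipose to 491 ± 133 in liver and 558 ± 49.8 in muscle. Muscle and liver did not differ beyond the spread for it (log2 difference 0.22, limma adjusted p = 0.184). Hadhb was 661 ± 170 in liver and 603 ± 67.5 in muscle (log2 difference -0.09, limma adjusted p = 0.611). Acaa2, the final thiolase of the pathway, was 1458 ± 342 in liver, 244 ± 56.7 in muscle and 97.3 ± 35.9 in adipose.

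Peroxisomal and ω-oxidation genes were far higher in liver than in the other tissues. Ehhadh, the peroxisomal bifunctional enzyme (chr16:21761285-21787834), was 4321 ± 2200 in liver, 192 ± 191 in adipose and 14.5 ± 9.51 in muscle. The 6 adipose libraries ran from 25.8 to 420. Cyp4a14, an ω-hydroxylase of fatty acids, was 12856 ± 7556 in liver, with adipose at 3.10 ± 4.24 and muscle at 1.22 ± 2.69. The muscle mean rests on W5S5004, at 6.70 against at most 0.291 in the others of its group. W5S5004 also had the highest Alb of that group, at 22.9 against at most 1.455. Cyp4a10, Cyp4a14 and Cyp4a31 are related neighbours on chromosome 4, and Acot1, Acot2 and Acot3 are neighbours on chromosome 12. How reads of similar stretches were divided within each cluster is uncertain. Acaa1b has a close copy, Acaa1a, and the same holds for it.

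Among the fasting genes, Pdk4, the kinase that shuts pyruvate dehydrogenase when fat is burned, was 7495 ± 1494 in muscle, 374 ± 417 in adipose and 114 ± 77.5 in liver. Cd36, the fatty acid transporter, was 2535 ± 825 in adipose, 800 ± 123 in muscle and 119 ± 63.2 in liver. Ppara itself was 337 ± 118 in liver, 39.5 ± 20.1 in muscle and 5.76 ± 2.32 in adipose. Fgf21, the fasting hormone, was 21.8 ± 12.5 in liver and under 2 in every adipose and muscle library of that group.

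No gene of the module was called between Myc KO and WT mice. In adipose at 5 months 0 of 36 tested members passed (limma, 0.105% of all genes called), and at 20 months 0 of 36 (0% of all genes called). In liver 0 of 37 passed at 5 months (0.0696%) and 0 of 37 at 20 months (0.0232%). In muscle 0 of 33 passed at 5 months (0%) and 0 of 33 at 20 months (0.0302%). The interaction of genotype and age called no member and no gene in any tissue (0%). At an unadjusted p under 0.05 the members numbered 15, 0, 1, 3, 3 and 2 in these 6 genotype comparisons, in the order given, against 11.8%, 2.25%, 6.94%, 5.8%, 4.1% and 13.8% of all genes, and edgeR on the recovered reads also called none. Further pathway genes outside the module were also without a call between genotypes in any tissue at either age by limma. In adipose at 5 months these were 26 mitochondrial, 25 peroxisomal and 32 PPAR target or fasting genes and 15 receptors and partners, of which 12, 6, 3 and 4 had an unadjusted p under 0.05.

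In adipose at 5 months the mitochondrial genes nevertheless stood mostly below WT. Of the 20, 18 had a log2 difference below 0, with a median of -0.52 against -0.04 for all genes, and 13 had an unadjusted p under 0.05. Crat (chr2:30400476-30416017) was nearest to the threshold. Its signal in the 6 KO libraries had a lowest, median and highest value of 87.2, 131 and 169, and in the 6 WT libraries of 199, 222 and 246. The groups did not overlap, as was so for 0.301% of all genes, and the log2 difference was -0.81 (SE 0.16, limma adjusted p = 0.0549). Acsl1, the acyl-CoA synthetase, was 516 ± 182 in KO and 947 ± 356 in WT (log2 difference -0.85, limma adjusted p = 0.337). Acaa1b, a peroxisomal thiolase, was 50.5 ± 30.6 and 73.5 ± 37.1 (-0.64, limma adjusted p = 0.506). The further mitochondrial genes outside the module showed 20 of 26 below 0 with a median of -0.39.

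Tissue composition moved with this comparison. The 8 epididymis markers summed to 0.173 to 6095 in the KO libraries (median 478) and to 0.116 to 920 in WT (median 0.461), with 5 of the 8 (Lcn8, Lcn9, Rnase10, Cst11 and Spag11b) under 1 in every library of both groups. The 8 white adipocyte markers summed to 13221 to 44825 in KO (median 19312) and 23957 to 41009 in WT (median 32469). Without the 4 libraries that held epididymis transcripts, the mitochondrial median was -0.26 with 15 of 20 below 0, the median over all tested members was -0.02 with 19 of 36 below 0, and Crat stood at -0.47 (limma adjusted p = 0.242). The KO libraries kept there were K5F4285, K5F5116 and K5F5118, with mitochondrial mean log2 levels of 6.02, 6.15 and 6.70. K5F5118 had a brown adipocyte marker sum of 120, against a median of 8.29 in its group. Its Alb was 215, against at most 21.65 in the rest of its group. The part of K5F5118 in the smaller difference was not tested. Within the Y-transcript libraries alone, which include all 4 epididymis-bearing libraries, 9 members were called (3.68% of all genes). Lower there were Crat (-1.01), Etfdh (-0.58), Hadh (-1.04), Acadm (-1.12), Decr1 (-1.17), Acads (-1.09), Etfb (-1.02) and Eci1 (-0.85), and Acot1 was higher (2.0). The part of composition in the difference was not otherwise tested.

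**Figure D2:**
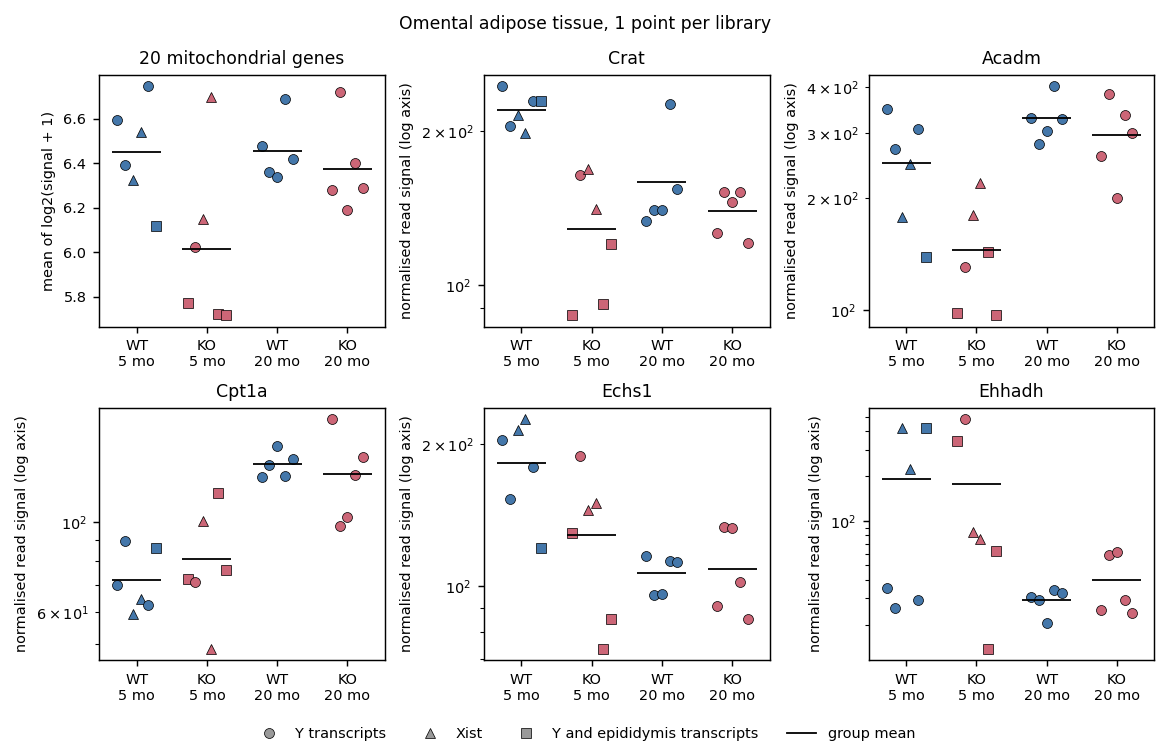
Omental adipose signal by group, 1 point per library, with horizontal lines at group means: the mean of log2(signal + 1) over the 20 mitochondrial genes, then the signal of Crat, Acadm, Cpt1a, Echs1 and Ehhadh on log axes. Squares are libraries with epididymis transcripts and triangles libraries with Xist. The 3 KO squares at 5 months are the lowest points for the mitochondrial mean.

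At 20 months 15 of the 20 mitochondrial genes in adipose were below 0, with a median of -0.06 against 0.01 for all genes. By unadjusted p the leading members of the gene groups were Cpt1b (5.53 ± 2.15 in KO, 8.33 ± 3.84 in WT, -0.50), Acot3 (0.827 ± 1.22 and 0.167 ± 0.222, 0.47) and Acsl1 (461 ± 162 and 670 ± 334, -0.51), all at limma adjusted p = 1. The difference of the genotype effect between ages was largest by p for Crat (0.65), Acaa1b (0.74) and Angptl4 (0.48), each at limma adjusted p = 0.998.

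In liver at 5 months 25 of 37 members were above 0 in KO (median 0.11, all genes 0.01). Cpt1b was 35.9 ± 22.4 in KO and 16.2 ± 8.10 in WT (log2 difference 1.01, limma adjusted p = 0.623). Ehhadh was 6627 ± 3179 and 4321 ± 2200 (0.61, limma adjusted p = 0.875). Gm15441, a PPARα-induced RNA antisense to Txnip, was 95.7 ± 98.9 and 33.4 ± 22.3 (1.11, limma adjusted p = 0.816). The labels name a strand-keeping library kit, but whether strand was used in counting is not stated in the sources used here, so Gm15441 and Txnip reads may be mixed.

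At 20 months 19 of 20 mitochondrial genes were below 0 in KO liver, with a median of -0.22 against 0.01 for all genes. Over the 20 mitochondrial genes the WT library W18L01 had a mean log2 level of 9.38. The other WT livers held 8.74 to 9.01 and the KO livers 8.58 to 8.90. The peroxisomal sum of W18L01 was 18588, against 6884 to 11106 in the other WT livers and 5926 to 14170 in KO livers. Echs1, the enoyl-CoA hydratase, was 268 ± 35.7 in KO and 340 ± 24.6 in WT (-0.35, limma adjusted p = 0.806). Eci2, a peroxisomal isomerase, was 355 ± 29.3 and 467 ± 103 (-0.37, limma adjusted p = 0.842). Cyp4a31 was 34.7 ± 17.5 and 78.9 ± 57.1 (-0.99, limma adjusted p = 0.878). The change of the genotype difference with age was below 0 for 33 of 37 members, with a median of -0.34 against 0.00 for all genes, led by Gm15441 (-2.43), Eci2 (-0.46) and Etfdh (-0.42), all at limma adjusted p = 0.991. The count below 0 was 35 of 37 within Y-transcript libraries and 32 of 37 without the 3 high-Dbp libraries. W18L01 enters each of these counts, and the counts without it are not given here. Genes of a shared pathway vary together, so a count of signs over members is a description and carries no test.

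In muscle at 5 months Slc25a20, the carnitine carrier, was 180 ± 22.5 in KO (n = 4) and 148 ± 26.7 in WT (n = 6), a log2 difference of 0.29. Ehhadh (0.50) and Acot1 (1.06) led the other gene groups, and limma adjusted p was 1 for all 3. The Ehhadh difference was -0.13 without KO library K5S4285, which held 68.9. At 20 months Hadh was 191 ± 22.7 in KO and 224 ± 21.1 in WT (-0.23, limma adjusted p = 0.372), and Cd36 was 1221 ± 226 and 949 ± 89.5 (0.35, limma adjusted p = 0.315). Acaa1b (-1.16) followed the hepatocyte transcripts in W18S42, described below.

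With age, members were called in 4 of the 6 comparisons of 20 with 5 months. In WT adipose 3 of 36 members were called between 20 and 5 months (10.8% of all genes called, 7.41% higher and 3.36% lower), below the share of all genes. Cpt1a rose. Its signal at 20 months was 129, 130, 138, 143 and 154, and at 5 months the lowest, median and highest were 59.4, 67.3 and 89.8. The groups did not overlap, and the log2 difference was 0.95 (SE 0.19, limma adjusted p = 0.0044). It was called in all 11 fits that left out 1 library. Cpt1b rose from a trace, at 5.56, 6.18, 6.35, 8.69 and 14.9 against 1.28, 2.21 and 5.07 (1.41, SE 0.45, limma adjusted p = 0.0465). Echs1 (chr7:140105710-140116421, overlapping Paox), whose promoter is shown above, fell. It read 95.8, 96.2, 113, 113 and 116 at 20 months against 120, 191 and 225 at 5 months (-0.74, SE 0.21, limma adjusted p = 0.0323). Neither Cpt1b nor Echs1 overlapped between ages (11.7% of all genes did not overlap), but Cpt1b was called in 2 and Echs1 in 3 of the 11 leave-one-out fits, with the highest adjusted p without W18F24 (0.119) and W18F22 (0.0805).

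Cell markers moved with age in this tissue. The 8 white adipocyte markers summed to 14826 to 21353 at 20 months against 23957 to 41009 at 5 months in WT, without overlap, and the 8 hepatocyte markers to 156 to 549 against 480 to 4890. Alb, the defining hepatocyte marker, was 3.37 to 132 at 20 months and 12.4 to 52.7 at 5 months, against at least 77210 in 5-month WT liver. The hepatocyte sum did not follow Alb here, and its fall is not read as a fall in hepatocyte content. In KO adipose the white adipocyte sums overlapped, at 14309 to 25021 and 13221 to 44825. The clock gene Per1 fell with age in WT adipose (-1.25) and in KO adipose (-1.20), where Hlf also fell (-1.06), with 12 clock genes tested in this tissue. The part of these markers, or of an unlabelled hour of collection, in the age differences was not tested.

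Eci2 (-0.47, limma adjusted p = 0.0757) and Cd36 (0.85, limma adjusted p = 0.0655) led the other gene groups in WT adipose. On the recovered reads, edgeR also called Acot1 (-2.3, edgeR adjusted p = 0.024), Acot3 (-4.12, 0.0359) and Ehhadh (-2.73, 0.0383), all lower at 20 months. Within Y-transcript libraries the call was made for 4 members: Cpt1a, Pdk4 (2.61), Vnn1 (1.39) and Fgf21 (0.89), in a fit that called 4.89% of all genes. Without the epididymis-bearing libraries limma called 9, with 24.3% of all genes called. These were Cpt1a, Cpt1b and Echs1, with Crat (-0.48), Etfb (-0.88), Acadvl (-0.49) and Eci2 (-0.56) lower, and Cd36 (0.90) and Pdk4 (1.80) higher. Outside the module, 2 of 26 further mitochondrial genes fell, Hsd17b10 (-1.72) and Etfbkmt (-0.87), and none rose. Of 25 further peroxisomal genes 2 fell, Scp2 (-0.89) and Nudt7 (-0.86). Of 32 further PPAR target and fasting genes 2 fell, Klf15 (-1.62) and Slc27a1 (-1.42). Among the receptors and partners, the nuclear receptor corepressor Ncor1 rose (0.90).

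In KO adipose 7 of 36 members were called (14.2% of all genes called), 6 higher and 1 lower at 20 months (10.5% and 3.75% of all genes). The 5-month KO libraries are those of the genotype comparison above, so the values are not independent of it. Acadm, the medium-chain dehydrogenase (chr3:153922353-153944643), read 201, 261, 300, 336 and 384 at 20 months against 96.9, 137 and 220 at 5 months (1.06, SE 0.24, limma adjusted p = 0.0083), with 1 pair of values out of order between the groups. Acaa2 read 90.5, 97.5, 115, 130 and 178 against 55.8, 61.5 and 89.3, without overlap, as for 5.09% of all genes (0.89, SE 0.23, limma adjusted p = 0.0157). Both were called in all 11 leave-one-out fits. Cd36 read 3767, 3911, 4545, 4669 and 4745 against 964, 2248 and 2852, again without overlap (1.12, SE 0.30, limma adjusted p = 0.0189).

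Cd36 was called in 9 of the 11 leave-one-out fits and reached 0.0555 without K18F26.

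Cpt1a (0.70, limma adjusted p = 0.0207), Acads (0.73, limma adjusted p = 0.0405) and Etfdh (0.41, limma adjusted p = 0.047) also rose, with overlapping groups. They were called in 8, 4 and 4 of the 11 leave-one-out fits, with the highest adjusted p without K18F26 (0.0805), K5F4284 (0.0988) and K18F26 (0.118). Acot1, a cytosolic acyl-CoA thioesterase, fell. It read 2.68, 3.19, 3.46, 3.84 and 11.03 at 20 months against 11.9, 16.2 and 36.9 at 5 months (-1.80, SE 0.51, limma adjusted p = 0.0259). Acot1 was called in 7 of the 11 leave-one-out fits and reached 0.0717 without K18F29. The library at 11.03, K18F27, also held the most hepatocyte marker signal of its group, at 1418. Acaa1b missed the threshold (1.16, limma adjusted p = 0.0506). Of further mitochondrial genes 7 of 26 rose and none fell, with the ketone-using enzyme Oxct1 at 1.14, and among the further peroxisomal genes Hsd17b4 rose (1.13). Of 32 further PPAR target and fasting genes none rose and 2 fell, Klf15 (-1.20) and Slc27a4 (-0.58). The receptor Ppard (-0.59) and Mlxipl (-0.74), the carbohydrate-response factor of lipogenic genes, fell as well. The count of members called was 15 within Y-transcript libraries (22.6% of all genes called) and 5 without the epididymis-bearing libraries (17.9% of all genes called). These 5 were Cpt1a, Acadm and Acaa2 with Echs1 at -0.58 and Acot2 at -1.08, and in that fit the mitochondrial median was -0.07 against 0.35 in all libraries. That fit kept K5F4285, K5F5116 and K5F5118 of the 5-month KO libraries, the last 2 with Xist, against 20-month libraries with Y transcripts. K5F5118 is the library with the high brown adipocyte marker sum given above. The Y-transcript fit kept K5F4284, K5F4285, K5F5218 and K5F5248, of which all but K5F4285 held epididymis transcripts. Neither fit removes both differences.

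In WT liver 0 of 37 members were called with age (limma, 7.19% of all genes called; 6 members at an unadjusted p under 0.05, and edgeR also 0). Ppara (chr15:85734910-85806851), the receptor itself, came nearest. It read 365, 539, 560, 571 and 656 at 20 months against 221, 301 and 497 at 5 months (0.72, SE 0.22, limma adjusted p = 0.052). It was called with TMM scaling (0.76, limma adjusted p = 0.042) and without the 3 high-Dbp libraries (0.80, limma adjusted p = 0.0461). Etfb (-0.50, limma adjusted p = 0.0995) and Acaa1b (0.56, limma adjusted p = 0.145) led the other gene groups. Of 33 further PPAR target and fasting genes 3 fell, Tat (-1.61), Acsl4 (-0.98) and Fabp4 (-0.88), and 25 of the 33 were below 0. Of 13 clock genes Hlf rose (0.74) and Per1 fell (-1.73).

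In KO liver 1 of 37 members was called (2.99% of all genes called). Cd36 (chr5:17781690-17888959) read 173, 231, 252, 373 and 512 at 20 months against 33.6, 68.0 and 243 at 5 months, with overlap (1.77, SE 0.46, limma adjusted p = 0.0366). It was called in 4 of the 11 leave-one-out fits and reached 0.111 without K18L06. In WT liver Cd36 read 188, 250, 288, 314 and 362 against 47.4, 108 and 196 (1.38, limma adjusted p = 0.0654). The 5-month groups mix libraries with Xist and libraries with Y transcripts. Among Y-transcript libraries Cd36 was called in WT (1.82, limma adjusted p = 0.0044) and in KO (limma adjusted p = 0.000456). Vnn1, a pantetheinase and classic PPARα target, was then also called in WT (1.87, limma adjusted p = 0.0056), and Eci2 in KO (-0.57, limma adjusted p = 0.0442). Acadvl (-0.35, limma adjusted p = 0.204) and Eci2 (-0.41, limma adjusted p = 0.195) led the other gene groups in KO over all libraries. The macrophage markers, a cell type that also makes Cd36, summed to 193 to 263 at 20 months and 306 to 540 at 5 months in KO liver, without overlap, and had medians of 190 and 355 in WT liver. Their part in the age values of liver was not tested.

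Among 5-month livers, some members separated libraries with Xist from libraries with Y transcripts, which is given as a description. Cd36 read 192 to 243 in the 4 Xist libraries and 33.6 to 118 in the 8 Y-transcript libraries. Vnn1 read 367 to 521 against 35.9 to 238, Acot3 152 to 335 against 37.2 to 107, and Fgf21 27.1 to 41.7 against 3.39 to 22.9. Acsl1 lay the other way, at 1219 to 2175 against 2399 to 4313. These 5 of 37 members did not overlap, against 2.58% of all genes. In adipose 1 of 36 did not overlap (2.26% of all genes), again Vnn1 at 75.8 to 166 against 4.04 to 36.2, and in muscle 0 of 33 (5.28%).

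**Figure D3:**
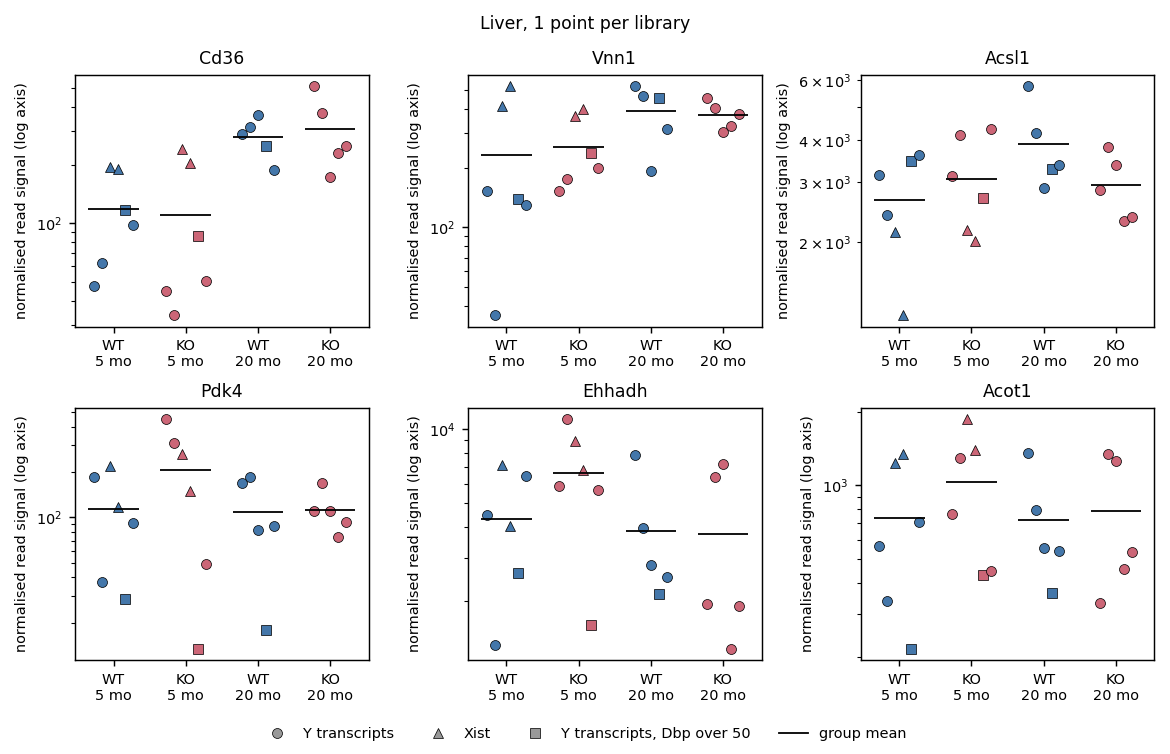
Liver signal by group on log axes, 1 point per library, with lines at group means, for Cd36, Vnn1, Acsl1, Pdk4, Ehhadh and Acot1. Triangles are Xist libraries and squares the 3 libraries with Dbp over 50. The squares are the lowest points of their groups for Pdk4 and Acot1, and the triangles the highest 5-month points for Cd36 and Vnn1.

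The 3 liver libraries with Dbp over 50 (W5L5277 at 81.8, K5L5218 at 121 and W18L04 at 255, with all others at or below 19.6) also had the lowest Arntl of their groups. Dbp and Arntl peak at opposite times of day. Pdk4 was the lowest of its group in each, at 28.6 against 37.5 to 220, 13.5 against 49.1 to 446, and 17.98 against 82.3 to 186. Acot1 and Acot2 were lowest there as well. In all, 8, 13 and 10 of the 37 members had their group's lowest value in these libraries, in groups of 6, 6 and 5. Any library of so small a group holds some lowest values by position alone. The share of all genes lowest there was not counted, so these counts are not read as a result about the members. In muscle, the 3 libraries with Dbp over 50 (W5S5277 at 68.2, K18S64 at 52.8 and W18S66 at 148) likewise had the lowest Arntl and the lowest Pdk4 of their groups, with Pdk4 at 5521 against 6075 to 9178, 5893 against 6859 to 12470, and 3726 against 5208 to 9741. They held the lowest value for 5, 1 and 4 of the members. Members called with age in WT muscle, described below, lay high in these muscle libraries. Within their groups, Acadm (464), Decr1 (173) and Acsl1 (1262) were highest in W5S5277. Acadm (583), Hadhb (802) and Decr1 (219) were highest in K18S64, and Hadhb (793) in W18S66. The labels do not give the hour of collection, and its part in these values was not tested.

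In WT muscle 4 of 33 members were called with age, all higher at 20 months (18.6% of all genes called, 10.9% higher and 7.68% lower), a smaller share than among all genes. Acadm read 475, 537, 562, 586 and 593 at 20 months against 342, 402 and 464 at 5 months (0.45, SE 0.09, limma adjusted p = 0.0054). Hadhb (chr5:30155253-30184593) read 705, 737, 773, 775 and 793 against 481, 615 and 672 (0.33, SE 0.09, limma adjusted p = 0.0156). Neither overlapped between ages (5.27% of all genes did not), and both were called in all 11 leave-one-out fits. Both had their lowest 5-month value in W5S5299, the library with epididymis transcripts. The others of that group held at least 389 of Acadm and 583 of Hadhb.

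Decr1, the dienoyl-CoA reductase needed for polyunsaturated chains, read 175, 189, 192, 200 and 234 against 123, 158 and 173, without overlap (0.36, SE 0.10, limma adjusted p = 0.0228). Its lowest 5-month value was also in W5S5299, with at least 152 in the others of that group. Decr1 was called in 9 of 11 leave-one-out fits and reached 0.0731 without W18S42. Acsl1 read 742, 838, 839, 981 and 1157 against 358, 444 and 1262, with overlap (0.73, SE 0.25, limma adjusted p = 0.0493), and was called in 2 of 11, with 0.112 without W5S5007. Within Y-transcript libraries Acadm and Hadhb remained called, Decr1 stood at limma adjusted p = 0.0639 and Acsl1 at 0.2. Without the muscle libraries with Dbp over 50 these 4 were called again (20.9% of all genes). Acaa1b led the peroxisomal genes (1.20, limma adjusted p = 0.362) and rests on W18S42, described below.

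Further pathway genes of WT muscle moved in both directions. Of 26 further mitochondrial genes 4 rose and none fell, with malonyl-CoA decarboxylase Mlycd at 0.45 and Etfrf1 at 0.40. Of 23 further peroxisomal genes 7 rose and none fell, with Acot6 at 0.99, Pex11a at 0.92, Nudt7 at 0.82 and Abcd2 at 0.81. Of 25 further PPAR target genes 1 rose and 5 fell, among them Ucp2 (-1.27), Klf15 (-1.16), Plin4 (-0.88) and Pnpla2 (-0.81). Of 15 receptors and partners 3 rose and 3 fell, with the coactivator Ppargc1b at 1.43, Rxrg at 0.88, Ppard at -0.83 and Fgfr1 at -1.26. Of 13 clock genes Nr1d2 (0.70) and Clock (0.55) rose and Per1 fell (-1.34). Markers of other cells had lower medians at 20 months: the white adipocyte sums were 1083 to 1187 (median 1091) against 1186 to 1996 (median 1496), and the macrophage sums 36.4 to 118 (median 71.6) against 65.9 to 222 (median 139). Their part in these changes was not tested.

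In KO muscle 0 of 33 members were called with age (limma, 5.57% of all genes called; 4 members at an unadjusted p under 0.05, and edgeR also 0). Acadm (0.29, limma adjusted p = 0.0957), Ehhadh (0.57, limma adjusted p = 0.572) and Cd36 (0.34, limma adjusted p = 0.153) led their gene groups. The difference between the WT and KO age changes was not called for any member (led by Slc25a20 at -0.34, Acaa1b at -1.38 and Cyp4a10 at -1.14, limma adjusted p = 0.999 for each).

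**Figure D4:**
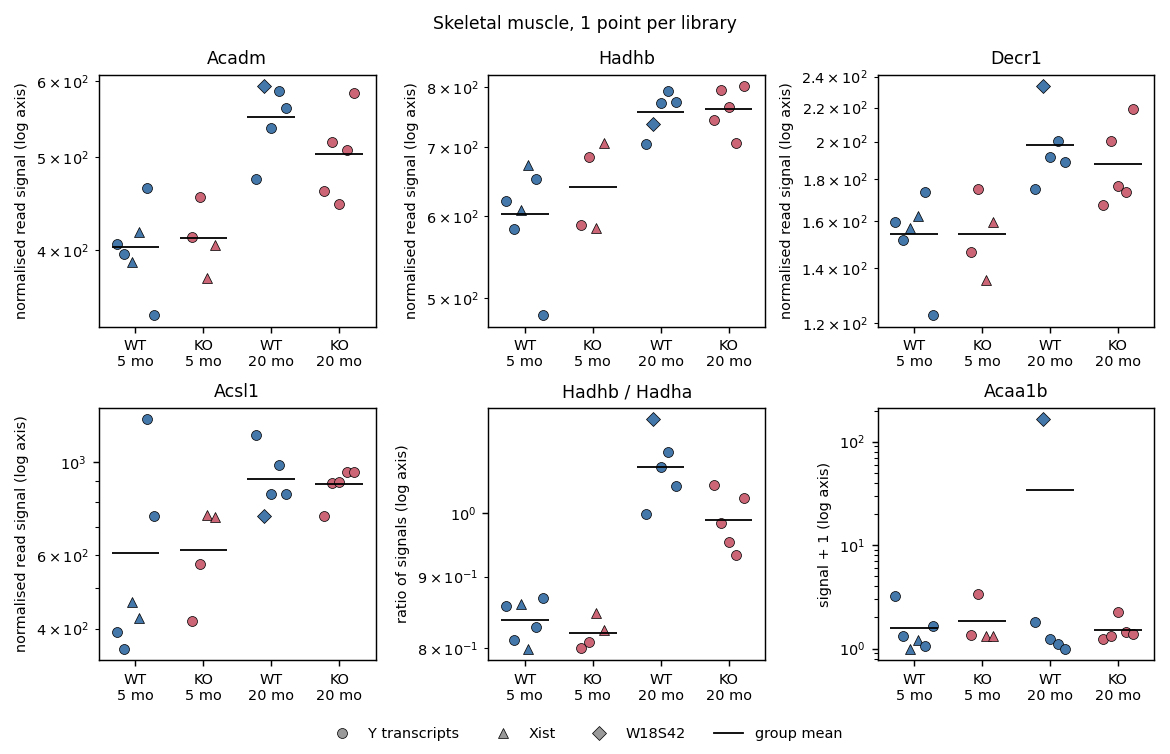
Skeletal muscle signal by group on log axes, 1 point per library, with lines at group means, for Acadm, Hadhb, Decr1 and Acsl1, the ratio of Hadhb to Hadha, and Acaa1b plus 1. The diamond is W18S42 and triangles are Xist libraries. The ratio separates the ages in either genotype, and the diamond alone carries Acaa1b.

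Hadhb rose in WT muscle, while Hadha, the other subunit of the trifunctional protein (chr5:30119423-30154980), was 703 ± 41.8 at 20 months and 722 ± 96.7 at 5 months. Their ratio within a library was examined after these values were seen. It compares signals not divided by length, so only its change between groups is read. In WT muscle it was 0.799 to 0.868 at 5 months and 0.998 to 1.17 at 20 months, without overlap (log2 change 0.36). In KO muscle it was 0.801 to 0.848 and 0.932 to 1.05, again without overlap (0.27). In WT liver the log2 change was 0.27, with overlapping ranges of 0.505 to 0.732 and 0.726 to 0.849. In KO liver it was 0.08, and in adipose 0.25 in WT and 0.30 in KO. Since the ratio was chosen for its difference, these values are a description and carry no test.

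The library W18S42 set several muscle values. Its 8 hepatocyte markers summed to 2953 against a group median of 4.41. Acaa1b read 163 there and at most 0.812 in the other 4 libraries of the group, Cyp4a10 92.2 against at most 1.22, and Cyp4a14 174 against at most 0.541. Set against the mean of the 20-month WT livers, W18S42 held 2.19% of Alb, 2.26% of Apoa1 and 2.90% of Ttr, and likewise 2.64% of Acaa1b, 2.15% of Cyp4a10, 1.79% of Cyp4a14, 2.33% of Acot3, 1.89% of Vnn1 and 2.15% of Ehhadh. The mean differences of these genes in 20-month WT muscle therefore rest on 1 library, and edgeR's calls of Cyp4a10 (5.92) and Acaa1b (5.70) with age do too.

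The age change differed between tissues of WT mice for a few members, all in comparison with adipose. Liver minus adipose called 2 of 37 (6.36% of all genes): Echs1 at 0.93 (SE 0.22, limma adjusted p = 0.0072) and Crat at 0.83 (SE 0.26, limma adjusted p = 0.0474). Muscle minus adipose called 3 of 37 (15.9% of all genes): Echs1 at 0.79 (SE 0.22, limma adjusted p = 0.0135), Cpt1b at -1.41 (SE 0.43, limma adjusted p = 0.0256) and Slc25a20 at 0.60 (SE 0.20, limma adjusted p = 0.0427). Muscle minus liver called none (limma, 3.26% of all genes; 3 members at an unadjusted p under 0.05, and edgeR also 0). By unadjusted p the leading members of the other gene groups were Acot3 (2.16, limma adjusted p = 0.0577) and Gm15441 (1.57, 0.11) in liver minus adipose, Ehhadh (2.44, 0.063) and Acsl1 (1.24, 0.0618) in muscle minus adipose, and Bdh1 (-1.36, 0.0766), Ehhadh (0.80, 0.68) and Cd36 (-1.12, 0.104) in muscle minus liver. Echs1 was 107 ± 9.80 at 20 months and 182 ± 40.1 at 5 months in adipose, 340 ± 24.6 and 301 ± 43.7 in liver, and 158 ± 28.4 and 154 ± 34.7 in muscle. Echs1 was called in all 22 leave-one-out fits of either contrast, Cpt1b in 21 (0.056 without W18F24), Slc25a20 in 8 (0.0824 without W18F23) and Crat in 7 (0.103 without W18L01). Within Y-transcript libraries Cpt1b stood at limma adjusted p = 0.0772, and edgeR gave adjusted p = 0.0588 for Slc25a20 and 0.0867 for Crat. The 2 contrasts share the adipose libraries, whose marker sums are given above. The muscle contrasts also include W18S42, where Ehhadh read 82.9 against at most 21.1 in the other 20-month WT muscle libraries.

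Liver and adipose libraries that carry the same number at 5 months were set side by side for 11 numbers, after the values were seen. The labels do not say that a number marks 1 animal. For Pdk4 the numbers fell into a low and a high set in both tissues. The 4 low numbers read 13.5 to 49.1 in liver and 96.6 to 128 in adipose, and the 7 others 92.4 to 446 in liver and 301 to 1326 in adipose. Because of this split no correlation is given over all numbers. Within the 7 high numbers, taken as deviations from the genotype mean on the log2 scale, r was 0.53 and ρ 0.57 (exact permutation within genotype, p = 0.264 and 0.278), so the relation was not shown within the set. Vnn1 split by Xist, and within the 7 numbers with Y transcripts its r was 0.175.

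Ehhadh had r = 0.847 and ρ = 0.791 over the 11 numbers (exact permutation p = 0.00265 and 0.00925), with r = 0.740 without the 2 numbers farthest from the median and 0.899 in the 7 numbers with Y transcripts. After adjustment over the 12052 genes compared, its p was 0.371, and 0% of genes were called.

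**Figure D5:**
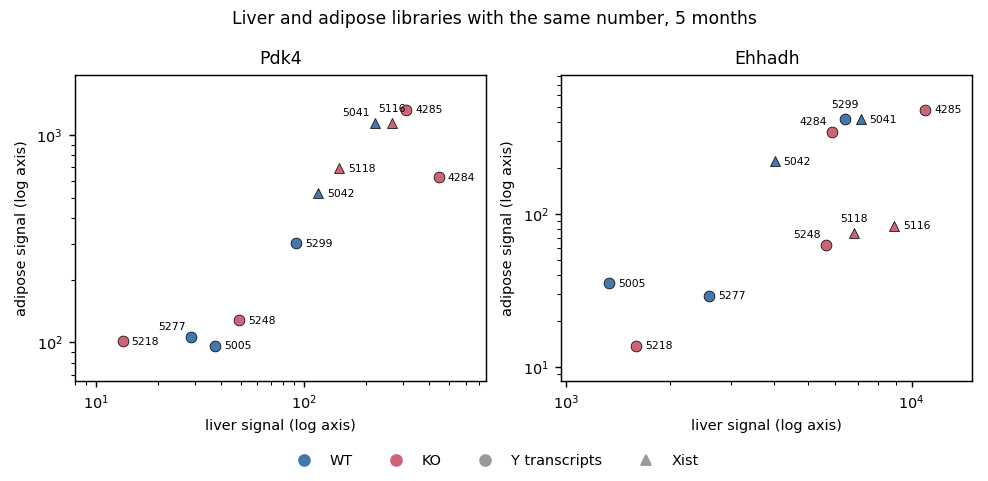
Signal of Pdk4 and Ehhadh in liver (x, log axis) and omental adipose (y, log axis) for the 11 numbers found in both tissues at 5 months, labelled by number. Blue is WT, red is KO, and triangles are numbers with Xist. The 4 numbers lowest in liver Pdk4 are also the lowest in adipose.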

How the data were processed

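RNA sequencing of 64 libraries was compared in 12 groups taken from the labels. The authors deposited 1 table headed CPM, with GRCm38.p6 (mm10) named per the submitters' processing notes; aligner and counting settings are not given in the sources used here. Its columns sum to 529294 to 1640180, so the deposited values are treated as a normalised signal and not as CPM. They are whole multiples of 1 read (100% within 0.001 of a read), 15449409 to 28500633 reads per library. An identifier listed on 2 lines was summed. No 2 libraries of the same group were duplicates, and libraries of different groups were not compared.

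Values were tested as log2(signal + 1) with limma 3.58.1 (trend, Benjamini-Hochberg) in R 4.3.3, in 1 fit per tissue and 1 fit over WT groups, for genes whose signal passed 1 in a number of libraries equal to the smallest group or more: 14286 in adipose, 12924 in liver, 13237 in muscle and 15229 in WT. Fold changes of low genes are understated on this scale. The procedure was tested on simulated data. edgeR 4.0.16 on the recovered reads called 0.063%, 11.9%, 7.20% and 18.6% of genes for adipose KO against WT at 5 months and for age in WT adipose, liver and muscle.

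The members and lists were chosen with earlier results of these data known. Text names every called member of the genotype, age and age-difference comparisons and the member of each of their gene groups with the lowest unadjusted p. Tissue comparisons, which called most members, are given as counts with examples; further pathway lists are given as counts with at most 4 named genes. Alternatives were pseudocount 0.1, no filter, TMM scaling, edgeR, Y-transcript libraries only, no epididymis-bearing libraries, a replicate block and leaving out each library. Leaving out high-Dbp liver or muscle libraries, the Hadhb to Hadha ratio and the same-number comparison were chosen after seeing the data. Y and Xist classes come from transcripts. Some genes of the further pathway lists are not reported here.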

Additional observations from a re-analysis of the deposited data

Results flagged for a closer look

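Among 66 groups of 4 to 6 libraries examined for a library far from the others, 5 had one. Chance gives about 1 in 20 for independent groups. These groups share libraries and W18S42 was flagged more than once, so the count of 5 is not read as an excess. The mean log2 level of the mitochondrial genes was lowest in the 5-month WT muscle library W5S5299, at 7.59. The 20-month WT muscle library W18S42 was far above its group for the peroxisomal mean (5.84) and for the fasting and PPAR target mean (5.8); it is the library with hepatocyte transcripts. Acaa2 was far above its group in the 5-month KO adipose library K5F5118, at 89.3. That library also had the highest brown adipocyte marker sum of its group, at 120. Acot1 was far above its group in the 20-month KO adipose library K18F27, at 11.03.

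The log2 change with age in WT mice differed between tissues, by limma's test of the difference, for Crat (0.83) and Echs1 (0.93) in liver minus adipose, and for Cpt1b (-1.41), Slc25a20 (0.60) and Echs1 (0.79) in muscle minus adipose.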

How the results depend on the processing

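Counts of members called moved as follows. With Y-transcript libraries only, adipose KO against WT at 5 months went from 0 to 9, KO adipose ageing from 7 to 15, WT liver ageing from 0 to 2, KO liver ageing from 1 to 2, WT muscle ageing from 4 to 2, and the WT age differences from 2 to 4 (liver minus adipose) and 0 to 2 (muscle minus liver). Without the epididymis-bearing libraries WT adipose ageing went from 3 to 9. Without a filter, WT adipose ageing fell to 1, KO adipose ageing to 3, KO liver ageing to 0 and liver minus adipose to 1, the last also with a pseudocount of 0.1. With edgeR, WT adipose ageing gave 5, KO liver ageing 0 and muscle minus adipose 6. In muscle minus adipose edgeR added Acaa1b (5.53), Acot1 (2.76), Acot3 (8.09) and Ehhadh (3.67). Within 20-month WT muscle each of these was highest in W18S42, the library with hepatocyte transcripts. TMM scaling gave 1 in WT liver ageing, as did leaving out the high-Dbp livers, an alternative chosen after seeing the data. TMM scaling and edgeR each lost Cpt1b in WT adipose ageing (adjusted p = 0.0615 by limma and 0.107 by edgeR), Etfdh (0.0778 and 0.081) and Acads (0.0576 and 0.062) in KO adipose ageing and Acsl1 in WT muscle ageing (0.0591 and 0.131), and edgeR lost Cd36 in KO liver ageing (0.071). Leaving out 1 library gave 0 to 3 for adipose KO against WT at 5 months, 1 to 4 and 2 to 13 for WT and KO adipose ageing, 0 to 2 and 0 to 1 for WT and KO liver ageing, 2 to 6 for WT muscle ageing, 1 to 3, 2 to 7 and 0 to 2 for the age differences (liver minus adipose, muscle minus adipose, muscle minus liver), and 35 to 37, 25 to 30 and 35 for the tissue comparisons. Direction turned for Angptl4 in the adipose interaction (-0.0445 without epididymis-bearing libraries), and for Ehhadh in KO muscle ageing (-0.28 in Y-transcript libraries) and in muscle KO against WT at 5 months (-0.13 to 0.89 when 1 library was left out, the lowest without K5S4285). The cause was not tested. With a replicate block over shared numbers in the WT fit, 3, 4 and 0 members were called for the age differences and 37, 29 and 35 for the tissues, the added ones being Acot3 in liver minus adipose (2.17, limma adjusted p = 0.0447), Ehhadh in muscle minus adipose (2.56, 0.0441) and Hadh in muscle against adipose (0.45, 0.0345). This Ehhadh value also includes W18S42. Same-numbered libraries correlated at -0.068 to 0.297 over 14 pairs (median 0.16), and libraries of other numbers had a median of -0.0431. Pairs were taken as shown only if all were over 0.1, and 11 of 14 were. The labels do not tie numbers to animals. Intervals from 4 to 6 libraries limit what low genes can show.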
